A study of Homo sapiens with 8 samples.

Results

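Glycolysis and the hypoxia response were described through 36 named genes, of which 35 had a probe that could be named on the array. The 36 genes were listed by name, with earlier results of these data known, and no threshold on their values was applied. They are enzymes and regulators of the conversion of glucose to lactate, transporters and enzymes that remove acid, and genes commonly induced by low oxygen. GAPDH, a frequent loading control, and FAM162A, a mitochondrial hypoxia-induced gene, are among them. ALDOA could not be matched to a probe. All 35 matched genes had a value on at least 1 array and 33 had one on all 8 arrays, out of 22439 named genes on the array and 18226 with a value on at least 1 array. CA9 and CA12 were too dim on some arrays.

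Glycolysis splits glucose into pyruvate in the cytosol, and lactate dehydrogenase turns pyruvate into lactate, which leaves the cell with a proton through monocarboxylate transporters. Many of its genes are induced by hypoxia-inducible factor (HIF), a transcription factor whose alpha subunits are marked for destruction by prolyl hydroxylases when oxygen is present and which binds hypoxia response elements in promoters when oxygen is low. Tumour cells often keep this program active at normal oxygen, and in lung cancer cell lines its level differs between lines.

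Each array was hybridized with RNA of treated cells labelled with Cy5 and RNA of control cells of the same line labelled with Cy3, and all 8 arrays were on 1 slide with no dye swap. In the miR-150-3p group, EBC-1 and SK-MES-1 cells, both lung squamous cell carcinoma (LUSQ) lines, were transfected with miR-150-3p, the passenger strand of the miR-150 duplex, with 1 array per line. In the siDONSON group, SBC-3 small cell lung cancer cells received siDONSON-1, siDONSON-2 or siDONSON-3 against DONSON, a replication fork protein, with 1 array per siRNA. In the LOXL2-edited group, A549 lung adenocarcinoma cells (A549-GE1 to A549-GE3) had LOXL2, a lysyl oxidase, knocked down by CRISPR/Cas9 editing, with 1 array each. The controls of the transfections are called both mock and untransfected in the labels, and those of the edited cells had no genome editing. The labels name Lipofectamine RNAiMAX as the reagent for every sample. They do not say whether A549-GE1 to A549-GE3 are clones or pools, give no harvest time and do not say that the arrays of a group came from separate cultures, so that p-values measure only the spread between these arrays, which joins 2 cell lines in the miR-150-3p group and 3 siRNAs in the siDONSON group. The values come from bulk RNA, in which fewer cells and less RNA per cell cannot be told apart.

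The targeted genes were lower in their own groups. The log2 ratio of DONSON was -2.15, -1.79 and -2.11 with siDONSON-1, -2 and -3, and that of LOXL2 was -2.49, -2.67 and -2.59 in A549-GE1, -GE2 and -GE3. Of 60901 spots that are not controls, 41.1% to 46.4% were well above background in Cy3 and 48.5% to 56.2% in Cy5. The median log2 ratio over all genes lay between 0.018 and 0.053 on each array. Control EBC-1 cells had 3 of 11 squamous markers well above background, with TP63 and KRT5 not among them, and SK-MES-1 cells had 7 of 11. Control A549 cells had 4 of 9 adenocarcinoma markers, with NKX2-1 and the surfactant genes absent, and SBC-3 cells had 4 of 9 neuroendocrine markers. Markers of other types were also above background, as EBC-1 had the same 4 adenocarcinoma markers as A549, SK-MES-1 had 5 of these 9, and SBC-3 had 5 of the 11 squamous markers, TP63 among them. Of 9 markers of stromal and immune cells, 3 or 4 were above background in each line, COL1A1 and PTPRC in all of them.

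Few of the glycolysis and hypoxia genes passed the test in any treatment. No member passed it in more than 1 group, but the share of all genes that did was not counted. With miR-150-3p FAM162A and GAPDH were lower, with siDONSON NDRG1 was higher and TPI1 and LDHA were lower, and in LOXL2-edited cells HK2 was lower and PFKFB4, SLC16A3 and BNIP3L were higher. Values are log2 ratios of treated over control from the processed intensities, so that 1 means a 2-fold higher level and -1 a 2-fold lower level. The mean of a group was tested against 0 with limma over all 8 arrays, and a gene was called when its p-value, adjusted with the Benjamini-Hochberg method over all genes tested in the group, was under 0.05. Each SE is limma's, with the spread estimated over all 8 arrays rather than over the n arrays of the group alone. With miR-150-3p, 2 of 33 members were called (6.06%, both lower), against 5.38% of 14230 genes, 2.9% lower and 2.47% higher. With siDONSON, 3 of 34 members were called (8.82%, 2 lower and 1 higher), against 7.22% of 14454 genes, 3.21% lower and 4.01% higher (464 and 580 genes, which became 536 and 445 when each array was centred on its median). In LOXL2-edited cells, 4 of 35 members were called (11.4%, 1 lower and 3 higher), against 14.4% of 15531 genes, 6.77% lower and 7.58% higher. The share of members called was thus near the share of all genes in each group. The median log2 ratio of the members was 0.12 with miR-150-3p, -0.06 with siDONSON and 0.12 in LOXL2-edited cells, beside medians of 0.04, 0.03 and 0.02 over all genes tested.

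**Figure D1:**
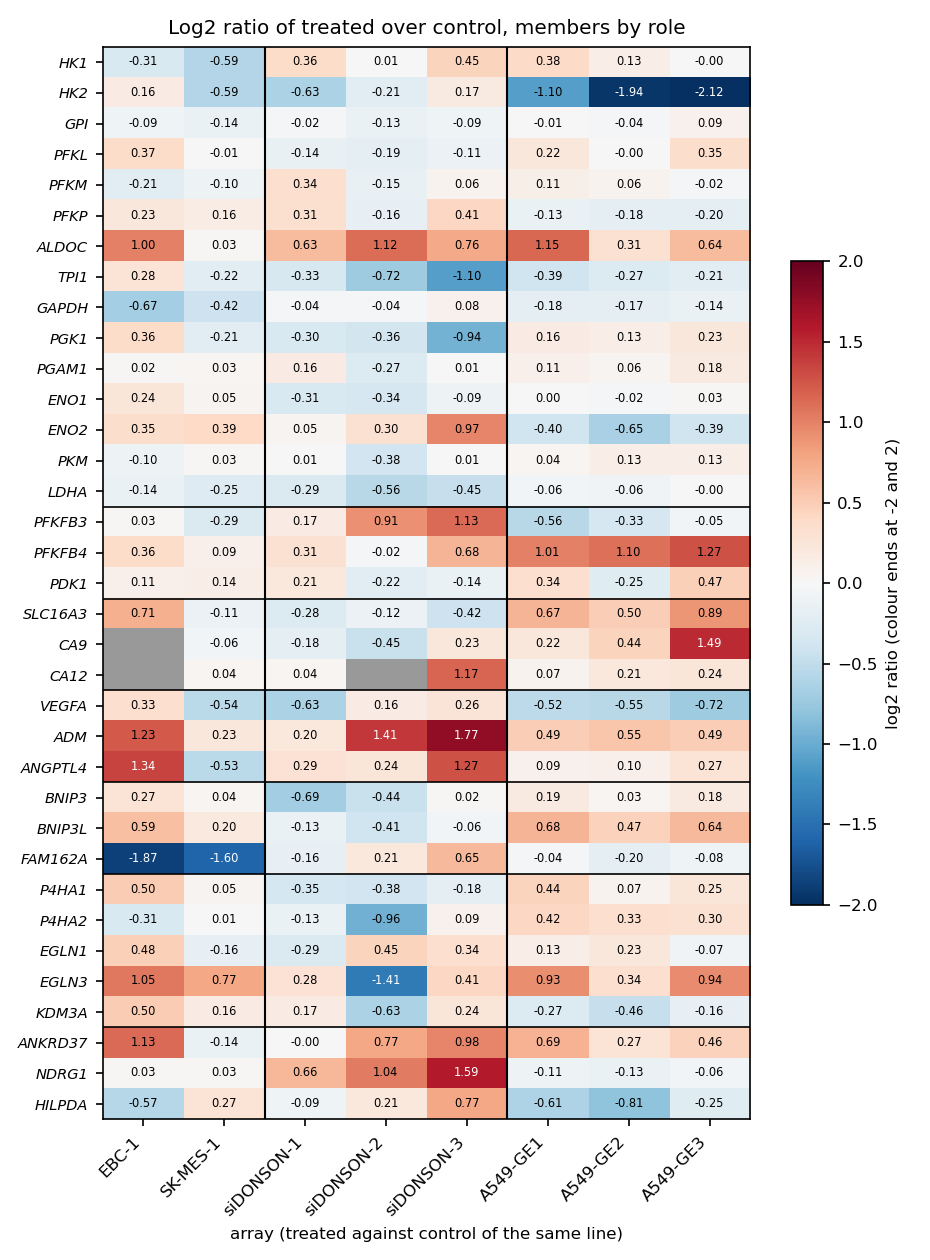
Log2 ratio of treated over control for 35 members (rows, in the order of their roles, with lines between roles) on 8 arrays (columns, with lines between the 3 groups). Red is higher and blue lower in treated cells, grey marks arrays on which CA9 or CA12 was not well above background in either channel, and most cells lie near 0, whereas FAM162A at -1.87 and -1.60 and HK2 down to -2.12 stand out in 1 group each.

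The miR-150-3p arrays asked which genes change when the miRNA is added to LUSQ cells. Among the members, FAM162A and GAPDH were lower in both lines. FAM162A, a mitochondrial protein linked to hypoxia-induced cell death, had a log2 ratio of -1.87 (EBC-1) and -1.60 (SK-MES-1). On the other 6 arrays it lay between -0.20 and 0.65, so that the 2 LUSQ arrays did not overlap with the rest. The mean was -1.73 ± 0.18 (SE, n = 2), a 3.32-fold lower level (limma, adjusted p = 0.00986). FAM162A was also lower with miR-150-3p than with siDONSON by a log2 difference of -1.97 ± 0.23 (limma, adjusted p = 0.011) and than in LOXL2-edited cells by a log2 difference of -1.63 ± 0.23 (limma, adjusted p = 0.0162). It was the 1 member of 33 called in each of these differences (3.03%), which called 2.69% and 3.6% of all genes. Without the EBC-1 array the call against 0 was lost at a log2 ratio of -1.60 (limma, adjusted p = 0.109), and it was lost when the 2 arrays were fitted alone (limma, adjusted p = 0.308).

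GAPDH, which oxidizes glyceraldehyde 3-phosphate and is also used as a loading control, stood at log2 ratios of -0.67 (EBC-1) and -0.42 (SK-MES-1). It lay between -0.04 and 0.08 in the siDONSON arrays and between -0.18 and -0.14 in the LOXL2-edited arrays, so that both LUSQ values were below all others. The mean was -0.55 ± 0.10 (SE, n = 2), a 1.46-fold lower level (limma, adjusted p = 0.0362). This call is close to the threshold: it was lost without the EBC-1 array (adjusted p = 0.235) and without any 1 of the LOXL2-edited arrays, which contribute only to the estimate of the spread (adjusted p = 0.0819 to 0.0879). It was also lost with no filter on dim probes (limma, adjusted p = 0.0541), with the 2 arrays fitted alone (limma, adjusted p = 0.364) and after the mean of the other groups was subtracted, at -0.46 (limma, adjusted p = 0.0923). The differences of GAPDH from the siDONSON group and from the LOXL2-edited group were -0.55 and -0.38 and did not pass (limma, adjusted p = 0.0743 and 0.153).

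The other 31 members tested with miR-150-3p did not pass. In EBC-1 cells 5 of 33 members had a log2 ratio above 1 and 1 had a log2 ratio below -1, on an array where 5.96% of all genes were above 1 and 6.04% below -1. In SK-MES-1 cells 0 of 35 members were above 1, against 2.57% of all genes, and FAM162A alone was below -1, against 1.27%. The 5 members above 1 in EBC-1 were ANGPTL4, a secreted inhibitor of lipoprotein lipase, at 1.34, ADM, the vasodilator peptide adrenomedullin, at 1.23, ANKRD37, an ankyrin repeat protein, at 1.13, EGLN3, a HIF prolyl hydroxylase, at 1.05, and the aldolase gene ALDOC, just past 1. In SK-MES-1 cells their values were -0.53, 0.23, -0.14, 0.77 and 0.03, and the Cy3 channel of ALDOC was not well above background there. EGLN3 was above 0 in both lines, with a mean of 0.91 ± 0.40 (SE, n = 2) that did not pass (limma, adjusted p = 0.17). The SD of its values in the 2 lines alone was 0.20. HK1, the constitutive hexokinase of most tissues, was at -0.31 and -0.59, and its mean of -0.45 ± 0.15 did not pass (limma, adjusted p = 0.103). BNIP3L, a mitophagy receptor, was at 0.59 and 0.20, and its mean of 0.40 ± 0.14 did not pass (limma, adjusted p = 0.111).

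The difference between EBC-1 and SK-MES-1 was tested in a fit with 4 groups, in which each lone array is assumed to vary like the arrays of the other groups. Here 0 of 33 members passed in limma, against 2.07% of 14230 genes, and 3 had an unadjusted p under 0.05. These were ANGPTL4 with a difference of 1.88 ± 0.49 (SE; limma, adjusted p = 0.123), ANKRD37 with 1.27 ± 0.47 (limma, adjusted p = 0.238) and SLC16A3, the lactate exporter MCT4, with 0.81 ± 0.25 (limma, adjusted p = 0.168). Each of them was higher in EBC-1. The median difference over the 33 members was 0.28, beside 0.00 over all genes.

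The siDONSON arrays asked what changes when DONSON is depleted. The stress gene NDRG1 was higher with all 3 siRNAs, and the glycolytic enzyme genes TPI1 and LDHA were lower with all 3. NDRG1, a growth-restraining protein induced by hypoxia, had a log2 ratio of 0.66, 1.04 and 1.59 with siDONSON-1, -2 and -3. On the other 5 arrays it lay between -0.13 and 0.03, so that the groups did not overlap. The mean was 1.10 ± 0.16 (SE, n = 3), a 2.14-fold higher level (limma, adjusted p = 0.0138). The call was lost when the siDONSON arrays were fitted alone (limma, adjusted p = 0.122), and held under the other 16 alternative settings.

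TPI1, which interconverts the 2 triose phosphates, had a log2 ratio of -0.33, -0.72 and -1.10 with siDONSON-1, -2 and -3. The values with siDONSON-2 and -3 were below those of all other arrays, but siDONSON-1 lay within the range of the LOXL2-edited arrays, at -0.39 to -0.21. The mean was -0.72 ± 0.16 (SE, n = 3), a 1.64-fold lower level (limma, adjusted p = 0.0369). LDHA, which makes lactate from pyruvate, had a log2 ratio of -0.29, -0.56 and -0.45, each lower than on the other 5 arrays, which lay between -0.25 and -0.003. Its mean was -0.44 ± 0.09 (SE, n = 3), a 1.35-fold lower level (limma, adjusted p = 0.029), and both of its probes were below 0 with every siRNA. The calls of TPI1 and LDHA were lost without siDONSON-2 or siDONSON-3 and without any 1 of the LOXL2-edited arrays, with adjusted p between 0.0607 and 0.144. They were also lost when the siDONSON arrays were fitted alone (limma, adjusted p = 0.168 for TPI1 and 0.195 for LDHA) and after the mean of the other groups was subtracted, at -0.59 for TPI1 and -0.32 for LDHA (limma, adjusted p = 0.121 and 0.131). The differences of TPI1 and LDHA from LOXL2-edited cells, -0.43 and -0.39, did not pass (limma, adjusted p = 0.267 and 0.0912).

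**Figure D2:**
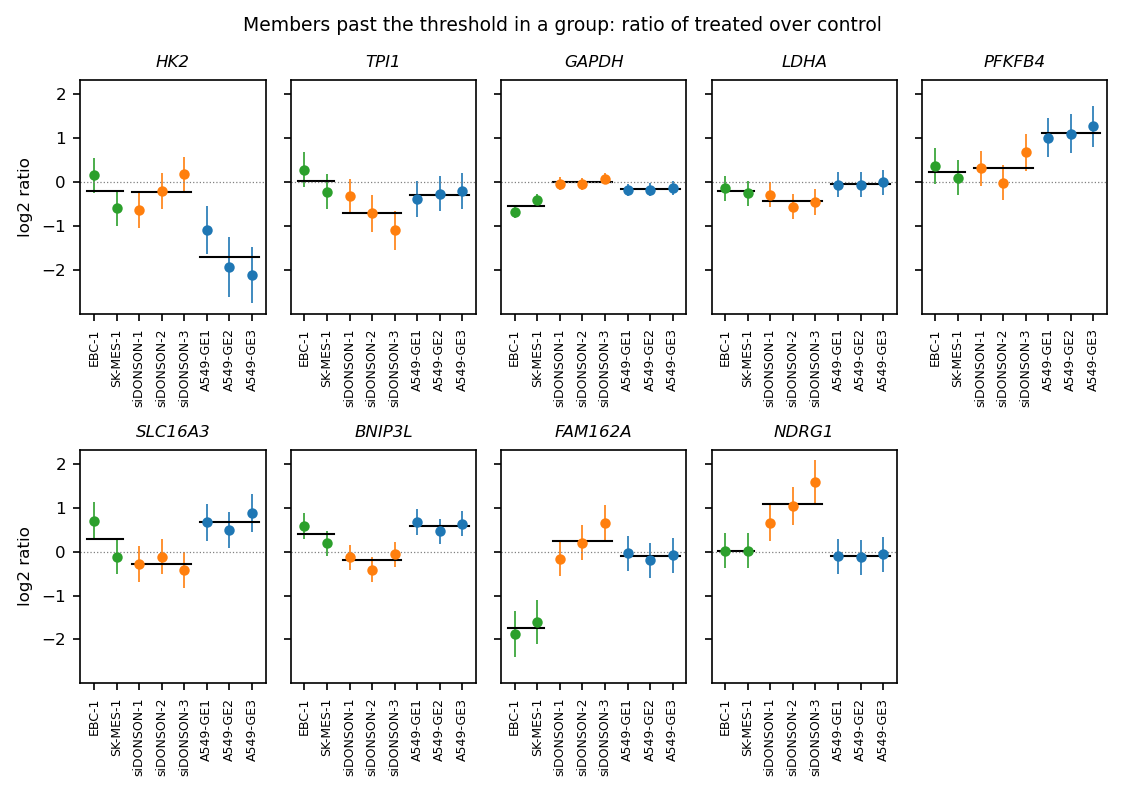
Log2 ratio of treated over control on each array for the 9 members called in a group, with the 95% limits of the software's error as bars and the mean of each group as a black line. The miR-150-3p arrays are green, the siDONSON arrays orange and the LOXL2-edited arrays blue, and the lowest values are those of HK2 in blue, from -2.12 to -1.10, FAM162A in green, at -1.87 and -1.60, and TPI1 with siDONSON-3 in orange, at -1.10.

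Of the 31 other members tested with siDONSON, 9 had an unadjusted p under 0.05 without passing, among them ADM, ALDOC, PFKFB3 and PGK1. ADM had a log2 ratio of 0.20, 1.41 and 1.77 with siDONSON-1, -2 and -3, and a mean of 1.13 ± 0.29 (limma, adjusted p = 0.0587). It was high with siDONSON-2 and -3 and close to the value in SK-MES-1, 0.23, with siDONSON-1. PFKFB3, whose product makes the activator of phosphofructokinase, followed the same order with 0.17, 0.91 and 1.13 and a mean of 0.73 ± 0.19 (limma, adjusted p = 0.0573). ALDOC was at 0.63, 1.12 and 0.76 with a mean of 0.84 ± 0.22 (limma, adjusted p = 0.0582). PGK1, the enzyme of the first ATP-yielding step, was at -0.30, -0.36 and -0.94 with a mean of -0.53 ± 0.15 (limma, adjusted p = 0.0785). These 4 genes lay just outside the threshold, and ADM, ALDOC and PFKFB3 passed it under 5 or 6 of the alternative settings each. ALDOC was dim in control SBC-3 cells, at a log2 level of 6.83. With limma's normexp correction and loess, its values fell to 0.19, 0.26 and 0.21 with siDONSON-1, -2 and -3. Those of PFKFB3 became 0.18, 0.55 and 0.68, whereas ADM and PGK1 stayed close to the values above. The size of the ALDOC rise thus depends on the normalization.

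The siRNAs differed among themselves in these genes. With siDONSON-3, 5 of 35 members were above 1 (NDRG1, ADM, ANGPTL4 at 1.27, CA12 at 1.17 and PFKFB3), against 3.04% of all genes, and TPI1 alone was below -1, against 1.81%. The value of CA12, a carbonic anhydrase of the cell surface, rests on a Cy3 signal that was not well above background. With that signal raised to the lowest Cy3 signal well above background, the level was 1.19-fold higher. Under normexp and loess the log2 ratio of CA12 with siDONSON-3 was 0.09. With siDONSON-2, 3 of 34 members were above 1 (ADM, ALDOC and NDRG1), against 2.87% of all genes, and EGLN3 was at -1.41, against 2.84% of genes below -1. EGLN3 was at 0.28 and 0.41 with siDONSON-1 and -3, so that the low value belongs to siDONSON-2 alone. EGLN3 was dim in control SBC-3 cells, at a log2 level of 6.74. Under normexp and loess its values were 0.13, -0.23 and 0.10 with siDONSON-1, -2 and -3. With siDONSON-1, 0 of 35 members were past 1 in size, where 4.2% of all genes were above 1 and 1.76% below -1.

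In LOXL2-edited A549 cells, which were compared with A549 cells without editing, the inducible hexokinase gene HK2 was lower, and PFKFB4, SLC16A3 and BNIP3L were higher. HK2, which traps glucose in the cell as glucose 6-phosphate, had a log2 ratio of -1.10, -1.94 and -2.12 in A549-GE1, -GE2 and -GE3. On the other 5 arrays it lay between -0.63 and 0.17, above every value in edited cells. The mean was -1.72 ± 0.24 (SE, n = 3), a 3.29-fold lower level (limma, adjusted p = 0.00563). HK2 was dim in control A549 cells, at a log2 level of 6.73 beside 11.1 to 13.2 in the other lines, and rests on 1 probe, as its other probe was not well above background on any array. With limma's normexp correction and loess, which adds an offset of 50 to each intensity, the values were -0.25, -0.33 and -0.40 with a mean of -0.33, and the call was lost (limma, adjusted p = 0.145).

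PFKFB4, an isoform of the enzyme that sets fructose 2,6-bisphosphate, had a log2 ratio of 1.01, 1.10 and 1.27 in the edited cells. On the other arrays it lay between -0.02 and 0.68, below all 3. The mean was 1.13 ± 0.14 (SE, n = 3), a 2.18-fold higher level (limma, adjusted p = 0.00339), and it was called under all 17 alternative settings, with a mean between 0.79 and 1.18. Its paralogue PFKFB3 was at -0.56, -0.33 and -0.05, and its mean of -0.31 ± 0.19 did not pass (limma, adjusted p = 0.302). PDK1, which inhibits pyruvate dehydrogenase, was at 0.34, -0.25 and 0.47, with edited cells on both sides of 0.

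SLC16A3 had a log2 ratio of 0.67, 0.50 and 0.89 and a mean of 0.68 ± 0.16 (SE, n = 3), a 1.61-fold higher level (limma, adjusted p = 0.0287). It was as high in EBC-1 with miR-150-3p, at 0.71, and below 0 on the other 4 arrays. BNIP3L was at 0.68, 0.47 and 0.64, and its mean was 0.60 ± 0.11 (SE, n = 3), a 1.51-fold higher level (limma, adjusted p = 0.0155), and both of its probes were above 0 in each edited sample. EBC-1 lay within the range of the edited cells for this gene too, at 0.59. The calls of SLC16A3 and BNIP3L were each lost when any 1 of the 3 edited samples was left out, with adjusted p between 0.0706 and 0.161, and after the mean of the other groups was subtracted, at 0.67 for SLC16A3 and 0.50 for BNIP3L (limma, adjusted p = 0.0958 and 0.0885).

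The remaining 31 members did not pass in LOXL2-edited cells. HK2 alone was below -1 in each edited sample, where 2.61%, 2.16% and 1.91% of all genes were in A549-GE1, -GE2 and -GE3, and PFKFB4 was above 1 in each, joined by ALDOC in A549-GE1 and CA9 in A549-GE3, where 4.68%, 4.19% and 4.07% of all genes were. Of the acid and lactate genes, CA9, a cell-surface carbonic anhydrase and a standard hypoxia marker, was at 0.22, 0.44 and 1.49. A549-GE3 was far above the others, and the mean of 0.72 ± 0.25 did not pass (limma, adjusted p = 0.108). CA9 was dim in control A549 cells, at a log2 level of 5.42. Under normexp and loess the CA9 values were 0.04, 0.07 and 0.30. The angiogenic factor VEGFA was at -0.52, -0.55 and -0.72 with a mean of -0.60 ± 0.21 (limma, adjusted p = 0.0969), and HILPDA, a lipid droplet protein, was at -0.61, -0.81 and -0.25 with a mean of -0.55 ± 0.21 (limma, adjusted p = 0.119). The neuronal enolase gene ENO2 was at -0.40, -0.65 and -0.39 with a mean of -0.48 ± 0.16 (limma, adjusted p = 0.0917). These 3 genes were thus below 0 in every edited sample without passing. ALDOC was at 1.15, 0.31 and 0.64 with a mean of 0.70 ± 0.22 (limma, adjusted p = 0.0702). It was dim in control A549 cells, at a log2 level of 6.09, and under normexp and loess its values were 0.26, 0.05 and 0.15. Of the 15 measured genes of the glycolytic steps, the 14 other than HK2 did not pass in edited cells, and their means lay between -0.48 for ENO2 and 0.70 for ALDOC.

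The difference between the siDONSON and LOXL2-edited groups was called for 5 of 34 members (14.7%, 3 lower and 2 higher with siDONSON), against 7.29% of 13656 genes, 3.51% lower and 3.79% higher. NDRG1 was higher with siDONSON by 1.20 ± 0.22 (SE; limma, adjusted p = 0.021), and HK2 by 1.50 ± 0.33 (limma, adjusted p = 0.0373). The HK2 difference was 0.16 under normexp and loess (limma, adjusted p = 0.675) and 0.89 with no filter on dim probes (limma, adjusted p = 0.256). SLC16A3 was lower by a log2 difference of -0.96 ± 0.22 (limma, adjusted p = 0.0415), PFKFB4 of -0.80 ± 0.19 (limma, adjusted p = 0.0459) and BNIP3L of -0.79 ± 0.16 (limma, adjusted p = 0.0275). Under normexp and loess the PFKFB4 difference was -0.48 and its call was lost (limma, adjusted p = 0.0877). ENO2 and PFKFB3 lay just outside, with differences of 0.92 and 1.05 (limma, adjusted p = 0.0514 and 0.0522). A dye effect that is the same on all arrays cancels in this difference, but the cell line and the treatment differ together and cannot be told apart. Without A549-GE2 or A549-GE3 the number of members called fell to 0, where 157 and 209 of all genes were called. It was 1 without A549-GE1 (241 of all genes), 2 without siDONSON-3 (492) and 3 without siDONSON-2 (1210).

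**Figure D3:**
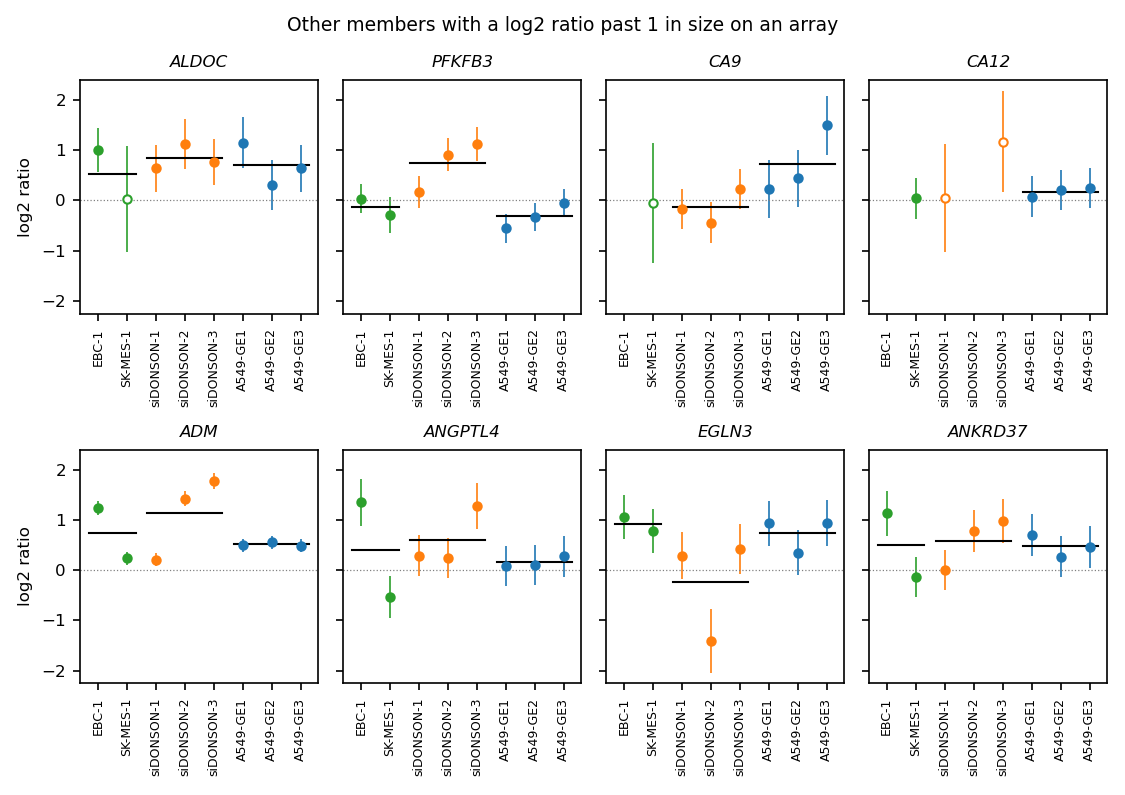
Log2 ratio of treated over control on each array for the 8 other members with a value past 1 in size on at least 1 array, with the 95% limits of the software's error as bars and the group mean as a black line where every array of the group has a value. Open circles mark arrays whose Cy3 signal was not well above background, and ADM ranges from 0.20 to 1.77 among the siDONSON arrays, whereas it is between 0.49 and 0.55 in the edited cells.

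Control levels of the members differed between the lines. The Cy3 level of control cells, on a log2 scale after normalization between arrays, was compared between lines gene by gene, as a description, since the control channels of a line may be 1 RNA. Of 35 members, 33 had their highest and lowest line more than 2-fold apart. Neither this nor the line of the highest or lowest level was counted over all genes. Whether the members differ from other genes here was thus not tested. The SD over the 3 arrays of a line had a median of 0.05 in SBC-3 and 0.04 in A549. EBC-1 had the highest level for 18 members, SBC-3 for 8, A549 for 5 and SK-MES-1 for 2 of those 33, and the lowest level was in A549 for 13, in SK-MES-1 for 13, in SBC-3 for 6 and in EBC-1 for 1.

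HK2 had the widest range among members well above background in every line, 89.0-fold from 6.73 in A549 to 13.2 in SBC-3, with 11.1 in SK-MES-1 and 12.8 in EBC-1. NDRG1 was highest in EBC-1, at 15.9, and between 11.3 and 12.4 in the other lines, with SBC-3 the lowest. The line in which NDRG1 was higher after transfection was the one in which it started lowest, and the line in which HK2 was lower after editing was the one in which it started lowest. The control level is also the denominator of the ratio, and line and treatment differ together. A link between control level and response was not tested. PFKFB4 was at 8.38 in A549, 9.39 in SK-MES-1, 11.4 in SBC-3 and 11.9 in EBC-1. SLC16A3 was also lowest in A549, with a 5.48-fold range to EBC-1.

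The carbonic anhydrases had opposite lines. CA9 was at 10.8 in SBC-3 and 5.42 in A549, and not well above background in EBC-1 and SK-MES-1. CA12 was at 11.6 in A549 and 9.10 in SK-MES-1, and not well above background in EBC-1 and SBC-3. The secreted factors VEGFA and ANGPTL4 were highest in EBC-1, at 12.5 and 15.9, with 16.9-fold and 15.9-fold ranges to A549. PDK1 was highest in SBC-3, at 11.8, and lowest in A549, at 7.82. LDHA and ENO1 had the narrowest ranges, 1.82-fold and 1.99-fold, and were the 2 members within 2-fold. FAM162A was higher in SBC-3 and EBC-1, at 14.4 and 14.3, than in A549 and SK-MES-1, at 12.3 and 11.8. The FAM162A log2 ratio with miR-150-3p was -1.60 in SK-MES-1, the line with the lowest level, and -1.87 in EBC-1. The software's errors of these ratios were 0.25 and 0.27, and a link to the control level was not tested.

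**Figure D4:**
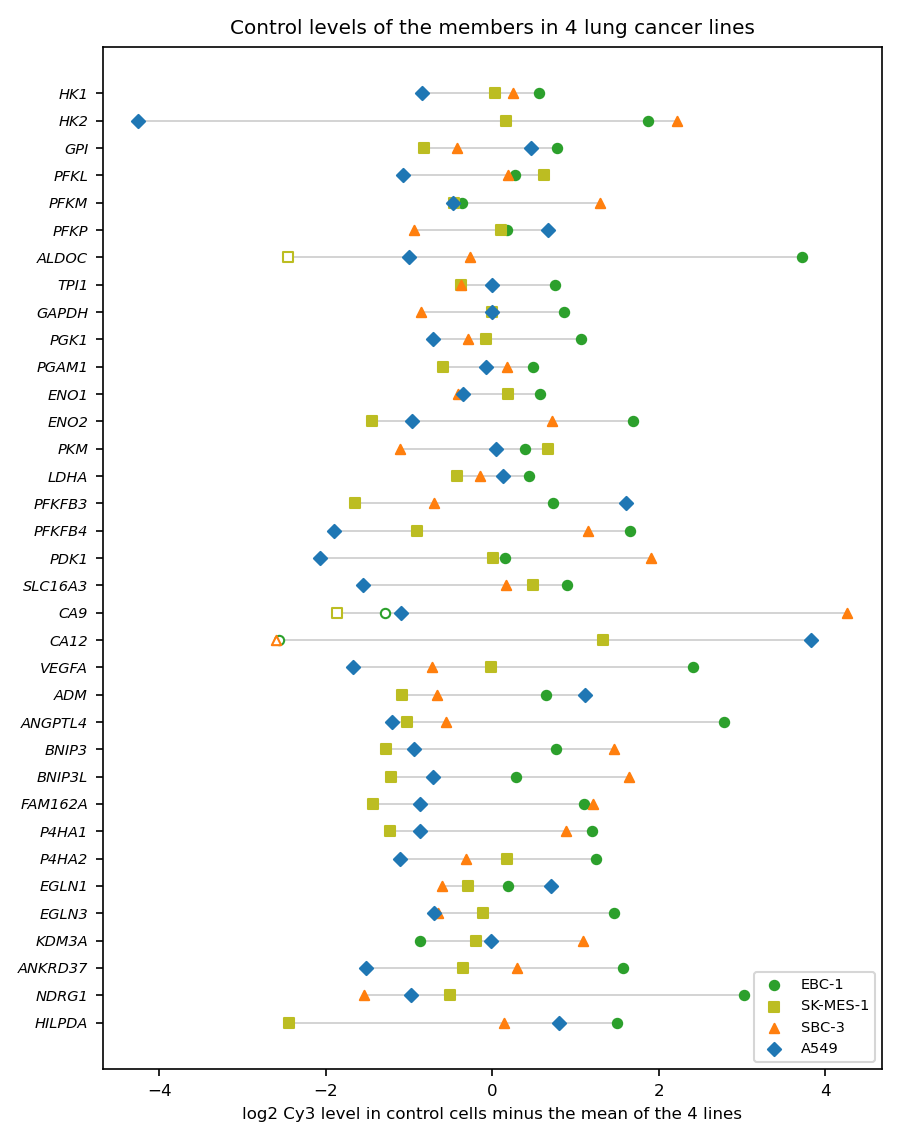
Log2 Cy3 level in control cells of 4 lung cancer lines for 35 members, each shown as its difference from the mean of the 4 lines, with open symbols where the signal was not well above background on every array of the line. Levels compare lines within a gene and not genes with each other, and HK2 spans 6.48 on the log2 scale from A549 to SBC-3, whereas LDHA spans 0.87.

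Other genes of the same pathways were counted in 5 lists, beside which 14.4% of all genes were called in LOXL2-edited cells (6.77% lower and 7.58% higher), 7.22% with siDONSON (3.21% lower and 4.01% higher) and 5.38% with miR-150-3p (2.9% lower and 2.47% higher). Of 20 HIF factors and regulators, 4 were higher in LOXL2-edited cells and 0 lower, the largest being HIF1A, the oxygen-regulated subunit, above its control in all 3 samples with a mean of 1.06 ± 0.13 (SE, n = 3; limma, adjusted p = 0.0034). With siDONSON 2 of 19 were higher, EPAS1, which encodes HIF-2 alpha, with a mean of 0.75 and HIF1AN with 0.52. With miR-150-3p 0 of 20 passed in limma and 3 had an unadjusted p under 0.05. Of 30 other hypoxia-induced genes, 6 were higher and 1 lower in edited cells, led by TXNIP, an inhibitor of glucose uptake, at 2.50, 2.59 and 1.93, by TMEM45A with a mean of 1.49 and by STC2 with a mean of -1.31. With miR-150-3p 0 of 32 passed in limma and 7 had an unadjusted p under 0.05. TXNIP was also the 1 gene of 29 that was higher with siDONSON, at 3.04, 0.76 and 1.78.

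Of 16 genes of pyruvate and lactate handling, 4 were higher and 1 lower in edited cells, against 7.58% and 6.77% of all genes. The lower one was PDK4, which inhibits pyruvate dehydrogenase, at -2.82, -3.07 and -3.52 with a mean of -3.14 ± 0.16 (SE, n = 3; limma, adjusted p = 0.000889). MPC1, a subunit of the mitochondrial pyruvate carrier, was higher with a mean of 0.88, and PDK3 with 0.61. With miR-150-3p only DLD passed of 16, with a mean of 0.56, and with siDONSON 0 of 15 in limma, where 5 had an unadjusted p under 0.05. Of 14 genes of the pentose phosphate pathway and glycogen, 2 were higher and 1 lower with miR-150-3p (21.4%), against 5.38% of all genes. PGD, which makes ribulose 5-phosphate, was among the higher with a mean of 0.63. The lower one was PYGB, the brain glycogen phosphorylase, with a mean of -0.79. In edited cells 3 of 14 were lower (21.4%, against 14.4% of all genes called), PYGB, PYGL and RPIA, with means from -0.89 to -0.48. With siDONSON 1 of 14 was lower (7.14%, against 7.22% called), TKT, with a mean of -0.60. Of the other glycolytic and gluconeogenic enzymes, HKDC1, a hexokinase, was lower (-1.13) with siDONSON, G6PC3 was lower (-0.50) and TIGAR, a p53-induced fructose bisphosphatase, higher (0.92) of 15 tested. TIGAR alone of 14 passed in edited cells (0.53), and 0 of 15 in limma with miR-150-3p, where 3 had an unadjusted p under 0.05. TIGAR was above 0 on all 8 arrays, with log2 ratios from 0.37 to 1.29. Its mean with miR-150-3p, 0.58 ± 0.17, was as large as in edited cells but did not pass (limma, adjusted p = 0.0801). Whether a gene-specific dye effect adds to these values was not tested, as there was no dye swap.

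The promoters of the members were searched for the core of the hypoxia response element, since HIF binding is the feature that many of them are known to share. RefSeq promoter windows (GRCh38.p14, 250 bases before to 50 after the start) were matched for 32 of the 36 genes, not for VEGFA, NDRG1, BNIP3L and HILPDA. The core ACGTG was sought on both strands of each window. The variant GCGTG was sought in the same way, and a palindrome CACGTG counts as a match on both strands. ACGTG was found in 16 of 32 windows (50%) against 21.4% of 27305 windows of the same length, GCGTG in 14 of 32 (43.8%) against 35.9%, and either in 24 of 32 (75%) against 47.8%. The windows of HK1, PDK1, PFKP, PGAM1, P4HA2, EGLN3, SLC16A3 and TPI1 held neither. Of the called members, FAM162A, HK2, GAPDH, LDHA and PFKFB4 had a core in the window. A stretch of 30 bases from each of these 5 promoters is printed 5′ to 3′ on the strand of the gene, to show where the letters lie, with a single core in capitals. The stretches of FAM162A, HK2 and LDHA hold further matches, which are left in lower case.
FAM162A: cagcgcgtggcgCACGTcctacacgccccg
GAPDH: ctctgcggggtcACGTGtcgcagaggagcc
HK2: aatgggcgtgcgCACGTcactgatccggag
LDHA: agcccgactcacACGTGggttcccgcacgt
PFKFB4: tgagttgggcatGCGTGgtcggaggccggg

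These stretches lie at chr3:122384086-122384115 (plus strand, FAM162A), chr12:6535172-6535201 (plus strand, GAPDH), chr2:74834067-74834096 (plus strand, HK2), chr11:18394465-18394494 (plus strand, LDHA) and chr3:48556952-48556981 (minus strand, PFKFB4) of GRCh38.p14, all before the start of the gene. The cores in capitals begin 84, 80, 48, 86 and 166 bases before it. The stretches of LDHA and GAPDH hold the palindrome. FAM162A, which was lower with miR-150-3p, and PFKFB4, which was higher in edited cells, both hold a core, whereas SLC16A3, which was higher in edited cells, and TPI1, which was lower with siDONSON, hold none in these windows.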

How the data were processed

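RNA of 8 treated and control pairs was measured on Agilent 2-colour arrays. The authors deposited, per the file headers, the output of Feature Extraction 12.1.1.1: intensities of both channels, background-subtracted, detrended and dye-normalized by the software, and log10 ratios with their error. A deposited table of the series holds the same log10 ratios. Log2 ratios of Cy5 over Cy3 were computed from the processed intensities. Outlier spots (81 to 133 per array) were left out, 0 spots were saturated, and probes not well above background in either channel of an array were set aside there. A gene is the mean of its counted probes, named through RefSeq accessions (31104 of 58201 probes named).

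limma 3.58.1 (R 4.3.3) fitted 3 groups to 8 arrays (5 residual degrees of freedom). Gene-specific dye effects are not removed by tests against 0, and their precision is limited by how few arrays there are. Control levels are log2 Cy3 intensities scaled between arrays (Aquantile). Members and other lists were chosen with earlier results of these data known. Values per array are given for members called in a group or past a log2 ratio of 1 on an array, and for GAPDH and FAM162A, and for at most the 3 largest genes of each other list and group. Other members named (HK1, ENO2, PGK1, VEGFA, HILPDA and PDK1) were chosen after their values were seen. Alternatives were other normalization, filters, probes, centring, fits and subsets of arrays. Some list genes are not reported here.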

Additional observations from a re-analysis of the deposited data

Results flagged for a closer look

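In 3 members the EBC-1 and SK-MES-1 arrays moved in opposite directions, each past the 95% limits of the software's error. The genes that did so were not counted over the whole array. ANGPTL4 stood at 1.34 (EBC-1) against -0.53 (SK-MES-1), a log2 difference of 1.88. VEGFA stood at 0.33 against -0.54, a difference of 0.87, and PGK1 at 0.36 against -0.21, a difference of 0.57. The VEGFA probes were at 0.19 and 0.47 in EBC-1. The software's error of PGK1 was small, 0.065 on each of these arrays, against 0.24 and 0.21 for ANGPTL4. With 1 array per line, limma's test of these differences did not pass (adjusted p = 0.123, 0.359 and 0.428).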

How the results depend on the processing

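All 16 calls of members, in the groups and their differences, kept their direction under every alternative that gave them a value, and 0 values reversed. An intensity trend, own arrays only, a replicate block and leaving out an array outside the comparison change only the spread. The direction could not change under those settings. The number of members called moved more, and the number called over all genes is given in brackets. With miR-150-3p it was 2 (765 of 14230), 3 under normexp and loess (1536) and 1 with no filter on dim probes (198 of 22439). It was 1 after the mean of the other groups was subtracted (224 of 13498) and 0 with its own arrays only (0). With siDONSON it was 3 (1044 of 14454), 6 under normexp and loess (1491) and 6 with both channels well above background (1082 of 13046). It was 6 with no filter on dim probes (2897 of 22438), 7 with an intensity trend (1253) and 0 with its own arrays only (26). In LOXL2-edited cells it was 4 (2229 of 15531), and 14 with its own arrays only (5873 of 15531). For siDONSON minus LOXL2-edited it was 5 (996 of 13656), 8 with an intensity trend (1195) and 1 with no filter on dim probes (868 of 22438). For miR-150-3p minus LOXL2-edited it was 1 (496 of 13778), 2 under normexp and loess (1008) and 2 with both channels well above background (636 of 12037). It was 3 with an intensity trend (679) and 3 with own arrays only (683). For miR-150-3p minus siDONSON it was 1 (350 of 13029), 5 under normexp and loess (603) and 2 with both channels well above background (420 of 11448). It was 3 with an intensity trend (461) and 0 with own arrays only (0). For EBC-1 minus SK-MES-1 it was 0, and 1 under normexp and loess, where the number over all genes also rose. The cause of these moves was not tested.

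With each array left out in turn, the number of members called ranged from 0 to 5 with miR-150-3p (0 without EBC-1, 5 without SK-MES-1), from 1 to 5 with siDONSON (5 without siDONSON-1, 1 without siDONSON-2, siDONSON-3 or any LOXL2-edited array) and from 2 to 6 in LOXL2-edited cells (2 without any 1 of its own arrays). It ranged from 0 to 6 for siDONSON minus LOXL2-edited, from 0 to 3 for miR-150-3p minus LOXL2-edited, from 0 to 5 for miR-150-3p minus siDONSON and from 0 to 1 for EBC-1 minus SK-MES-1. The calls of FAM162A in both differences were lost without the EBC-1 array, and its difference from LOXL2-edited cells without any LOXL2-edited array. Fewer arrays leave fewer residual degrees of freedom by construction.

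The siDONSON and LOXL2-edited arrays share only a number, as their deviations from the group means correlated at -0.02, -0.03 and -0.01 for numbers 1, 2 and 3. With a replicate block on these numbers, 1 member was called in siDONSON minus LOXL2-edited in place of 5. It was PFKFB3 (limma, adjusted p = 0.0451), while the 5 kept their size with adjusted p from 0.0506 to 0.0842. Over all genes, the count of calls in that difference went from 996 to 393 with the block. It was 765 with miR-150-3p, and 224 after the other groups were subtracted (153 lower and 71 higher, in place of 413 and 352), 198 with no filter, 1536 under normexp and loess and 0 with own arrays only, and 1 without EBC-1 and 2973 without SK-MES-1. It was 1044 with siDONSON, and 26 with own arrays only, 2897 with no filter and 97 without siDONSON-3. It was 2229 in LOXL2-edited cells, and 847 after the other groups were subtracted, 5375 with no filter, 5873 with own arrays only and 470 without A549-GE2. HK2, CA9 and ALDOC were dim in A549 controls, and ALDOC and EGLN3 in SBC-3 controls. CA12 was not well above background in EBC-1 and SBC-3. This limits the precision of the ratios of these genes. A slide block could not be fitted, as all arrays were on 1 slide.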
